A study of Rattus norvegicus with 7 samples.

Results

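Gene expression was compared between rat hippocampal neurons cultured with grape seed extract, at 1 or 10 µg/ml, and untreated hippocampal neurons. The comparison rests on 3 of the 7 arrays of the study: 2 treated neuron arrays and 1 untreated neuron array. All 3 came from primary cultures of Wistar rats, with an age given as 17 days and not stated to be before or after birth. The cultures were kept in DMEM with glutamine, an N1 supplement and antibiotics, and the extract was present for 24 h. Each dose was measured once, and whether a culture pooled several animals was not stated. No value therefore has an error, no test was possible, and every change is a size between single arrays. Both treated arrays were set against the same untreated array, so a high or low reading on that array alone gives a change in the same direction at both doses. The other arrays of the study were from astrocyte cultures, also of Wistar rats, at 0, 1, 10 or 100 µg/ml for 24 h. Their age was likewise given as 17 days. Astrocyte values at 1 and 10 µg/ml are given beside some of the neuron values, against an untreated astrocyte array of their own.

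Grape seed extract is a mixture of plant polyphenols, mainly flavan-3-ols and the proanthocyanidins built from them. Such compounds are known as antioxidants in the test tube. In cells they are studied for their action on the transcription factor NRF2, which turns on enzymes of glutathione synthesis and quinone detoxification, and on inflammatory signalling. Cultures of hippocampal neurons usually also hold glia, and the interferon response is a program of antiviral genes that neurons and glia both run, at a low tonic level without infection.

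A probe set is a group of short probes on the array that reads one transcript, and many genes have several. A probe set was called measured where its mean log2 signal over the neuron arrays was above the median signal of all probe sets and arrays, 79.9. This held for 4453 of 8740 probe sets, which covered 2781 genes with a single symbol. Of these genes, 775 (27.9%) had 2 or more measured probe sets. Signals below 17.9 were raised to that floor before taking log2, which affected 23.7% to 25.4% of the probe sets of a neuron array. Probe sets of a gene were used as the only repeat available, and they cover probe noise but not the spread between cultures.

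The neuron label held when set against its marker genes. The axonal growth protein Gap43 read 6972 in untreated neurons and 6834 and 7340 at the lower and higher dose, against 303 in untreated astrocytes. The brighter probe set of the neurofilament gene Nefl gave 1239, 1139 and 1269, against 13.9 in untreated astrocytes. Summed over 35 neuronal marker genes, the signal was 53764, 51133 and 54975 in neurons and 11297 in untreated astrocytes. The neuron cultures also carried glial RNA, since 25 astrocyte marker genes summed to 161416, 153918 and 161666, against 181815 in untreated astrocytes. Of these 2 lists, the neuronal markers thus set the neuron arrays apart, and astrocyte RNA was not lacking. The brightest probe set of the glutamate transporter gene Slc1a3, which marks astrocytes and radial glia, gave 9877, 9644 and 9808 in the neuron cultures and 3976 in untreated astrocytes. Markers of microglia and macrophages summed to 24753, 21160 and 24894 over 25 genes, with 1 of them at the floor on all neuron arrays. In untreated astrocytes they summed to 44458. Untreated neurons were also lower in fibroblast and meningeal markers, at 55304 against 112865, oligodendrocyte lineage markers, at 7193 against 17976, and endothelial markers, at 11724 against 14034. They were higher in dividing-cell markers, at 59408 against 57085, and choroid plexus and ependymal markers, at 15672 against 11487. In such mixed cultures, fewer cells of a type and less RNA per cell cannot be told apart.

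The neuron arrays resembled each other closely. At 1 µg/ml, 25 of 4453 measured probe sets (0.561%) differed at least 2-fold from untreated neurons, 12 higher (0.269%) and 13 lower (0.292%). At 10 µg/ml there were 34 (0.764%), 13 higher (0.292%) and 21 lower (0.472%). Between the treated arrays the number was 41 (0.921%), so neither treated array was farther from the untreated one than they were from each other. The SD of the log2 difference over measured probe sets was 0.26 for 1 against 0 µg/ml, 0.28 for 10 against 0 and 0.31 for 10 against 1.

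Of the 2781 genes, 23 (0.827%) differed at least 1.5-fold from untreated neurons, in one direction, at both doses and at every measured probe set. Of these, 13 (0.467%) were higher and 10 (0.36%) were lower. At 2-fold, 6 genes (0.216%) were higher and 0 lower. The same count, made with each treated array in turn as the one that stood apart, was 27 genes (0.971%) for the 1 µg/ml array and 57 (2.05%) for the 10 µg/ml array. The untreated array was thus not the one that stood apart most often. All 23 genes had a single measured probe set, and 8 of the 13 higher and 9 of the 10 lower genes had no other probe set on the array. Most were dim: 11 of the 13 higher genes and 9 of the 10 lower genes had a mean signal below 200, against 27.7% of all measured genes. Among the 1114 dimmest measured probe sets, with mean signals of 79.9 to 183, 2.87% were at least 1.5-fold away at both doses. The share was 0.359% from 184 to 441, 0.0% from there to 1290, and 0.0898% above.

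**Figure D1:**
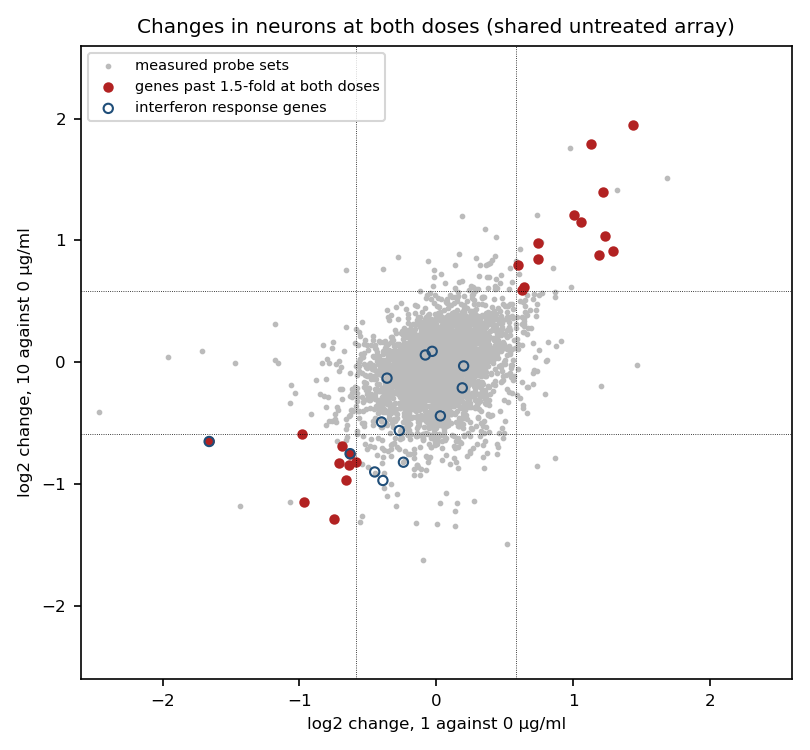
Log2 change against untreated neurons of each measured probe set at 1 µg/ml (horizontal axis) and 10 µg/ml (vertical axis), with no units beyond log2. Red points are the 23 genes past 1.5-fold at both doses, open circles are measured interferon response genes (a gene is the mean over its measured probe sets), and dotted lines mark 1.5-fold. Both axes share the untreated array, so any error of that array moves a point along the diagonal; most points lie near 0, and 8 of the 13 interferon genes lie below 0 on both axes.

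The group of genes that stood lowest at both doses was the interferon response. Of 53 genes listed for it, 16 were on the array and 13 were measured. Of these 13, 8 were lower at both doses and 0 were higher at both, against 31.8% lower and 28.8% higher among all measured genes. At a size of at least 1.2-fold, 6 of the 13 were lower and 0 higher at both doses, against 3.67% and 3.99% of all measured genes. The list's median log2 change came to -0.27 at the lower dose and -0.49 at the higher, where the median of all measured genes was 0.0 and -0.01. The 10 µg/ml array was below both other neuron arrays in 9 of the 13 genes and the 1 µg/ml array in 4, while untreated neurons were above both treated arrays in 8. A lower interferon list was already known in these arrays, so the counts are a description and no independent support. The genes of this response share a short promoter element, the binding site of interferon-regulated factors, and promoter sequences are printed for 5 of the genes lower at both doses to show it. Each is a stretch of 60 bases upstream of the transcription start in the RefSeq annotation of GRCr8, in the direction of transcription, with matches to GAAA, any 2 bases and GAAA again, on either strand, in capitals.
Irf7 (chr1:205800058-205800117, minus strand): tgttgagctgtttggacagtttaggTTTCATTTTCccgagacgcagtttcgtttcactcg
Oas1a (chr12:41330403-41330462, plus strand): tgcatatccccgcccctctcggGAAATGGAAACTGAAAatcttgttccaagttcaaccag
Rsad2 (chr6:48788233-48788292, minus strand): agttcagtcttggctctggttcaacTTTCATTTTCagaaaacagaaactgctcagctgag
Gbp2 (chr2:234005667-234005726, plus strand): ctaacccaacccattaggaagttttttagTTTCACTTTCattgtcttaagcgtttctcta
Cxcl10 (chr14:15988816-15988875, plus strand): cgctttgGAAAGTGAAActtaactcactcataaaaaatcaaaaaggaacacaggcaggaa

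In Oas1a the capitals hold 2 overlapping matches. Within 250 bases upstream of the start, 7 of the 12 measured interferon genes with a promoter entry held a match (58.3%), against 902 of 27457 promoters (3.29%) and 63 of 2302 measured genes (2.74%). Of the interferon genes lower at both doses, 5 of 7 held one, and of the other measured interferon genes 2 of 5. Among the 23 genes past 1.5-fold at both doses, 1 of 20 with an entry held one. A match is a description of the letters and no evidence that a factor was bound.

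Of the antiviral effectors, Rsad2, which encodes viperin, was measured by a pair of probe sets. The brighter gave signals of 338, 240 and 187 at 0, 1 and 10 µg/ml, and the dimmer 148, 121 and 69.7. Both readings were highest in untreated neurons and lowest at 10 µg/ml, with mean log2 changes of -0.39 and -0.97. Oas1a, a sensor that makes oligoadenylates upon binding double-stranded RNA, read 527, 340 and 314, with log2 changes of -0.63 and -0.75. The dynamin-like antiviral GTPase gene Mx2 read 162, 51.4 and 104, so its low point was at 1 µg/ml. Its relative Mx1 read 141, 110 and 129. The signals of Oas1a were well clear of the filter, while those of Mx2 and Mx1 were close to it.

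Of the regulators and secreted products, Irf7, the transcription factor that amplifies the type I interferon response, read 266, 195 and 142. It was lower at each dose step, with log2 changes of -0.45 and -0.90. Stat2, a part of the complex through which type I interferon acts on promoters, read 431, 358 and 291. The interferon-induced GTPase gene Gbp2 read 625, 529 and 354, and the chemokine gene Cxcl10 read 285, 216 and 204. All of these were lower at both doses and lowest at 10 µg/ml.

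The remaining 5 measured genes of the list did not move one way. The transcription factor gene Irf1 read 2275, 2525 and 1856 at its brighter probe set and 264, 246 and 175 at its dimmer one, so both readings were lowest at 10 µg/ml. Irf3 read 680, 778 and 586, and Irf8, a factor of microglia and other myeloid cells, read 128, 147 and 126. The membrane protein gene Ifitm3 read 4342, 4109 and 4531, and the double-stranded RNA kinase gene Eif2ak2 read 692, 680 and 734. The log2 changes of Ifitm3 and Eif2ak2 lay between -0.08 and 0.09 at both doses.

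**Figure D2:**
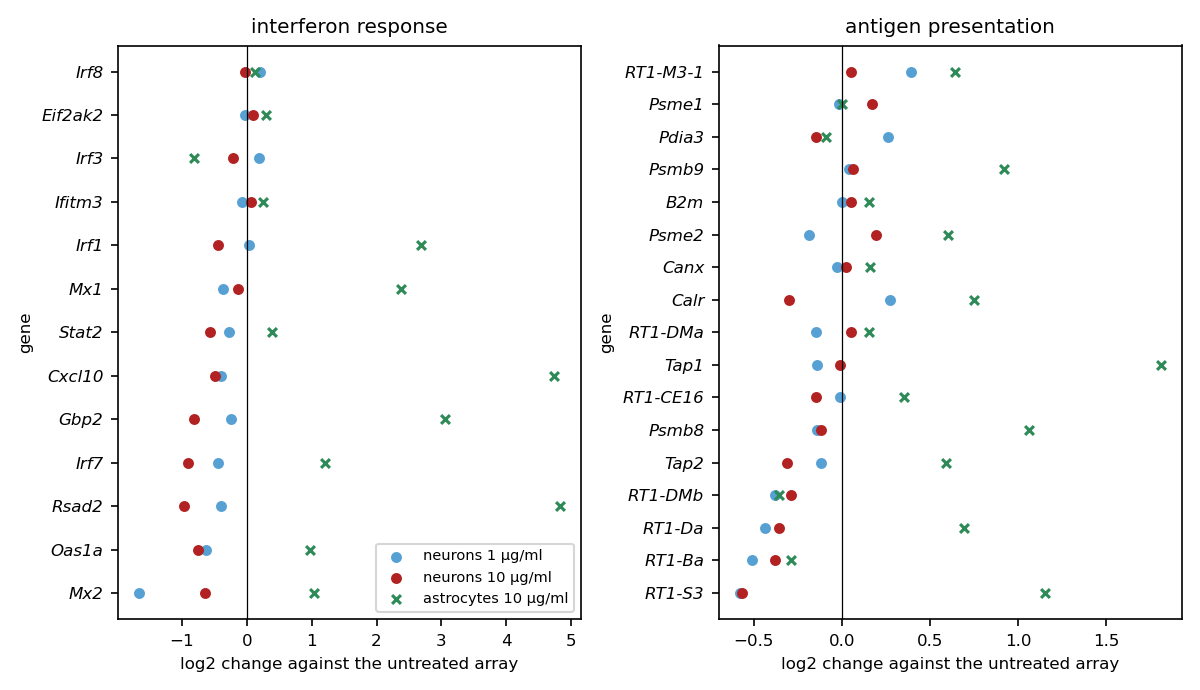
Log2 change against the untreated array (horizontal axis) for each measured gene of the interferon response (left) and antigen presentation (right) lists. Blue and red points are neurons at 1 and 10 µg/ml and green crosses are astrocytes at 10 µg/ml; in neurons 8 of 13 interferon genes lie to the left of 0 at both doses, while in astrocytes Rsad2 and Cxcl10 lie at 4.83 and 4.74.

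In treated astrocytes the interferon list had medians of 0.13 at the lower dose and 1.04 at the higher one. The brighter probe set of Rsad2 gave 430, 1608 and 11128 in astrocytes at 0, 1 and 10 µg/ml, and Cxcl10 gave 332, 547 and 8879. Of the 8 genes lower in neurons, Oas1a was also lower in astrocytes at the lower dose, at 495, 377 and 967. Irf3 was lower at both astrocyte doses, with log2 changes of -0.23 and -0.82. The neuron and astrocyte changes share no array, and the difference between them was not tested, since each dose has 1 array.

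The antigen presentation list held 17 measured genes, with a median log2 change of -0.12 at both doses. Of these, 8 were lower and 2 higher at both doses, beside 31.8% and 28.8% of all measured genes, and 4 were lower by at least 1.2-fold, beside 3.67%. Those of class II, which display peptides on professional antigen-presenting cells, included RT1-Da at 179, 132 and 140, RT1-Ba at 119, 83.7 and 91.7, and RT1-DMb at 729, 488 and 585 on its brighter probe set. The dimmer measured probe set of RT1-DMb read 200, 177 and 167, so both readings were highest in untreated neurons. Below the filter, another RT1-Da probe set read 50.9, 65.9 and 47.3. Those of RT1-Ba read 43.0, 22.5 and 69.6, then 34.0, 24.9 and 28.0, and that of RT1-DMb read 34.2, 21.0 and 18.3. The remaining class II gene, RT1-DMa, had log2 changes of -0.15 and 0.05. The class I gene RT1-S3 met the size on its mean, but its probe sets disagreed: one read 256, 122 and 116 and the other 184, 173 and 184. Probes for these closely related genes can bind each other's RNA, so single RT1 genes are uncertain. The class I light chain B2m had log2 changes of -0.00 and 0.05.

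Markers of microglia and macrophages, which carry class II molecules and respond to interferon, were also low at 1 µg/ml. Of 14 measured, 9 were lower and 1 higher at both doses, beside 31.8% and 28.8% of all measured genes, with medians of -0.21 and -0.09. The complement gene C1qb read 326, 156 and 287 on one probe set and 240, 117 and 202 on the other, so it was low on the 1 µg/ml array and close to untreated neurons at 10 µg/ml. Aif1, which encodes IBA1, read 242, 144 and 180. Other microglial genes were lowest at 10 µg/ml: the log2 changes were -0.22 and -0.49 for Cd53, -0.24 and -0.49 for Plek and -0.20 and -0.35 for Ptpn6. The interferon list was lowest at 10 µg/ml, where the summed microglial signal was 24894 against 24753 in untreated neurons. How far microglial RNA contributed to the interferon values was not tested.

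Of the genes past 1.5-fold at both doses, the farthest above untreated neurons was Glycam1, which encodes a mucin-like endothelial ligand of L-selectin. It read 41.5, 112 and 160, which was 2.71-fold and 3.87-fold above untreated neurons. The atrial natriuretic peptide gene Nppa read 68.0, 149 and 234, and was higher at each dose step. Its 3 other probe sets were below the filter. They read 64.9, 77.6 and 42.8, then 50.7, 53.5 and 9.1, then 18.6, 22.4 and 42.9, so the dimmest followed the same order and the others did not. Wdr62, a scaffold of the centrosome and spindle pole, read 46.5, 108 and 122, and the thyroid transcription factor gene Foxe1 read 50.7, 106 and 112.

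The other higher genes have varied roles. Gpx7, an oxidoreductase of the endoplasmic reticulum, read 65.7, 154 and 135. Dcn, which encodes the matrix proteoglycan decorin made by fibroblasts and meningeal cells, read 73.3, 148 and 170, while its 3 dim probe sets did not follow. The phosphatase gene Dusp7, which acts on MAP kinases, read 62.4, 153 and 117, and Ptprr, another phosphatase of MAP kinases, read 91.8, 153 and 165. The sodium-calcium exchanger gene Slc8a1 read 159, 364 and 293, with 4 further dim probe sets that did not pass the filter. The vitamin D receptor gene Vdr read 58.8, 97.9 and 116. The kinase gene Cdk11b read 60.9, 95.2 and 93.9, and Isoc2b read 70.5, 109 and 106. In all of these the untreated array held the lowest value, which follows from the 1.5-fold rule.

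Rara, which encodes retinoic acid receptor alpha, was the 1 bright gene among the 23. Its measured probe set gave signals of 1450, 2202 and 2522 at 0, 1 and 10 µg/ml, with log2 changes of 0.60 and 0.80. In astrocytes the same probe set gave 789, 1160 and 1512, with log2 changes of 0.56 and 0.94, so both cell types had the order 0, 1, 10 µg/ml. The second probe set of Rara, below the filter, read 72.8, 61.3 and 49.7 in neurons and ran the other way. The third read 19.9, 19.9 and 66.2.

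Of the lower genes past 1.5-fold, the interferon genes Mx2 and Oas1a are described above. Svs3a, a seminal vesicle secretory protein gene, read 186, 94.9 and 83.7, and the meprin protease gene Mep1a read 120, 79.8 and 68.4. Lrch4, a leucine-rich repeat protein gene, read 148, 88.2 and 60.5. Mgll, the lipase that ends the action of the endocannabinoid 2-arachidonoylglycerol, read 126, 79.8 and 64.7. Rbpj, the DNA-binding partner of Notch, read 159, 102 and 89.1. The postsynaptic scaffold gene Dlg4, which encodes PSD-95, read 154, 78.5 and 103. Smim13 read 126, 76.9 and 70.6, and the guanylate cyclase gene Gucy2e read 118, 73.0 and 73.1. In each of these the untreated array held the highest value, which follows from the same rule.

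**Figure D3:**
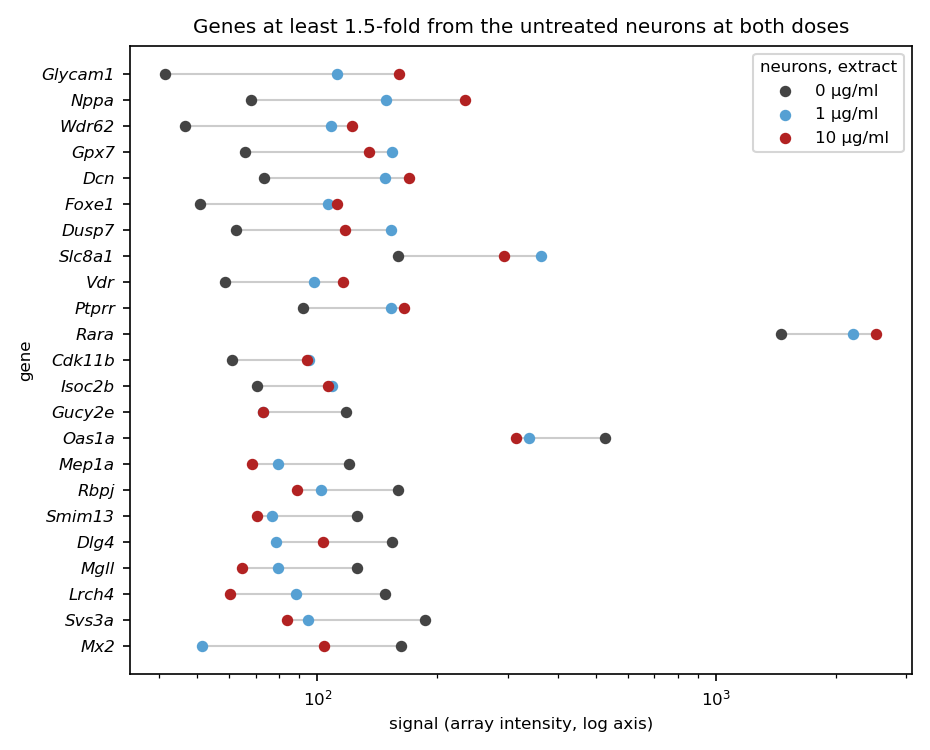
Signal (horizontal log axis, array intensity) of the 23 genes at least 1.5-fold from untreated neurons at both doses, with 1 point for each of the 3 neuron arrays. Apart from Rara, with 1450 in untreated neurons, and Oas1a, with 527, the genes lie between 41.5 and 364.

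The threshold had near neighbours on both sides. Just inside it, the smaller change of Isoc2b was 0.59 and those of Dlg4 and Mep1a were -0.59. Just outside it, Zswim7 had 0.58, Sort1 -0.58 and Anapc15 0.57.

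Agreement between probe sets was asked of the 775 genes with 2 or more measured probe sets. At 1.5-fold, 0 of them (0.0%) qualified. At 1.2-fold, 0 (0.0%) were higher and 2 (0.258%) were lower at both doses and all probe sets, Rsad2 and Adprh. Adprh, which removes ADP-ribose from arginine residues of proteins, read 199, 155 and 141 on one probe set and 165, 124 and 114 on the other. With the 1 µg/ml array as the one apart, 11 such genes (1.42%) met the same 1.2-fold rule, and with the 10 µg/ml array 20 (2.58%). Among genes with 1 measured probe set, 101 of 2006 (5.03%) were higher and 92 (4.59%) lower by that size. With any size counted, 84 of the 775 genes (10.8%) were higher and 79 (10.2%) lower at both doses and all probe sets.

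The largest agreed changes among these genes were small. Of those higher, the mitochondrial pyruvate dehydrogenase subunit gene Pdhb read 696, 1014 and 901 on its brighter probe set and 152, 214 and 168 on its dimmer one. Cript, which encodes a protein that binds PSD-95, read 515, 616 and 744 and 191, 232 and 240. The thyroid hormone carrier gene Ttr, a marker of choroid plexus, read 1359, 1654 and 1590 and 582, 716 and 680. Churc1 read 2654, 3373 and 3460 on its brighter probe set. Pex14, Cfap299, Nup58 and Decr1 had log2 changes of 0.13 to 0.55 over doses and probe sets. All of these had their lowest reading in untreated neurons on both measured probe sets, as the rule that picked them requires.

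Of those lower, the survival kinase gene Akt1 read 2264, 1952 and 1806 on its brighter probe set and 593, 440 and 458 on its dimmer one. The kinesin light chain gene Klc1 read 4361, 3777 and 3913 and 354, 231 and 290. The phosphofructokinase gene Pfkp read 1470, 1324 and 1335 and 390, 338 and 278, and Safb read 842, 719 and 764 and 239, 198 and 203. C1qb and RT1-DMb, described with the microglial and class II genes, completed the set. Both measured probe sets of each of these were highest in untreated neurons, which the rule again requires.

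**Figure D4:**
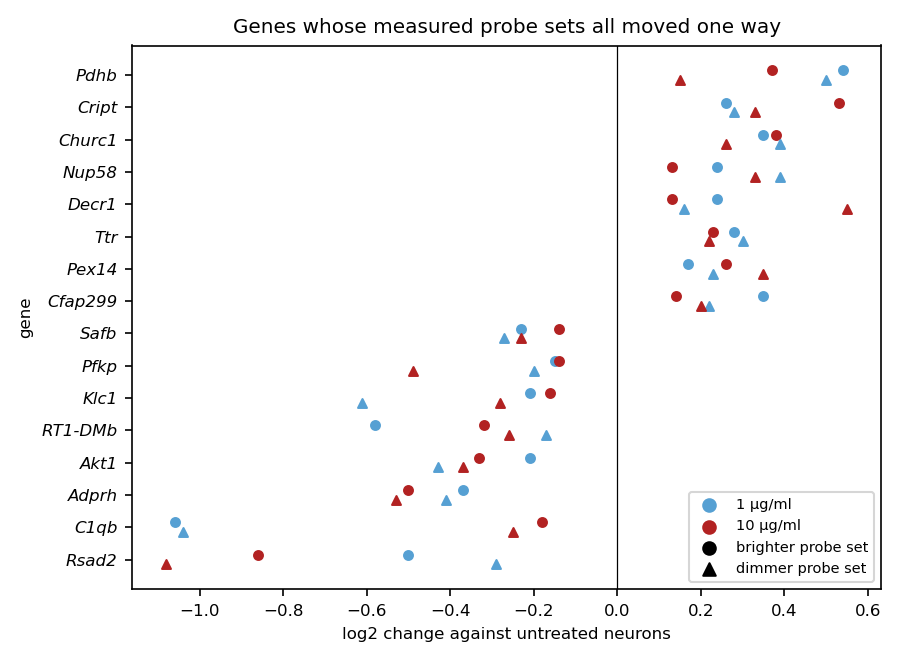
Log2 change against untreated neurons (horizontal axis) for the 8 genes each way with the largest agreed change among genes with 2 or more measured probe sets. Circles are the brighter and triangles the dimmer probe set, in blue at 1 and red at 10 µg/ml; apart from C1qb at 1 µg/ml and the dimmer probe set of Rsad2 at 10 µg/ml, no change exceeds a log2 size of 0.86.

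Probe sets of a gene often went separate ways. Of the 37 probe sets at least 1.5-fold away at both doses, 10 belonged to 9 genes in which another measured probe set did not follow. The dendritic microtubule protein gene Map2 read 263, 97.4 and 116 and 196, 118 and 126 on its dimmer measured probe sets, but 2844, 2976 and 2754 on its brightest. The myelin gene Mag read 38.5, 124 and 110 on one probe set and 127, 141 and 126 on the other. For Mdm2, the ubiquitin ligase of p53, one read 45.0, 88.7 and 152 and the other 274, 265 and 315. The neurotrophin gene Bdnf had a dim probe set, below the filter, that read 22.5, 112 and 134. Its 3 measured probe sets read 222, 246 and 219, then 236, 196 and 182, then 125, 99.3 and 115, and showed no such difference. Marcks, Camk2d, Ndufs8, Trpc1, RT1-S3 and LOC102547700 were the remaining genes of the 9.

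Among 1165 bright genes, those with every measured probe set above a signal of 435.7, 14 (1.2%) were higher and 10 (0.858%) lower by at least 1.2-fold at both doses. After Rara, the higher ones included Pmepa1, a TGF-beta-induced membrane protein gene, at 2935, 3692 and 4247. The chromatin protein gene Hmgb1 read 971, 1458 and 1206, and the circadian repressor gene Bhlhe41 read 564, 747 and 746. The mitochondrial ferredoxin gene Fdx1 read 520, 671 and 660, and Fbln5, an elastic-fibre protein gene, 770, 994 and 1015. Rpl36al1 and Natd1 had log2 changes of 0.36 to 0.56. Each of these had its lowest signal in untreated neurons, as their selection requires.

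The lower bright genes included Spry1, an inhibitor of receptor tyrosine kinase signalling, at 1180, 945 and 739. The phosphatase gene Ppp1ca read 3193, 2279 and 2572, and the purine salvage gene Aprt 4348, 3310 and 3494. The drug efflux transporter gene Abcb1b read 581, 457 and 464, and Igfbp5, which binds insulin-like growth factors, read 627, 483 and 478. Mcpt1l1, Pdlim4 and Asb1 had log2 changes of -0.31 to -0.42. In all 8 the untreated array held the highest value, again by selection.

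A few genes stepped the same way from 0 to 1 and from 1 to 10 µg/ml by at least 1.2-fold each at every measured probe set: 9 (0.324%) upwards and 15 (0.539%) downwards. Upwards, after Glycam1 and Nppa, the farthest were Hoga1, an enzyme of hydroxyproline breakdown, at 70.1, 95.0 and 143, and the granzyme B inhibitor gene Serpinb9 at 121, 156 and 211. Mlnr read 62.2, 82.3 and 112. Downwards, the endocytosis adaptor gene Pacsin2 read 204, 140 and 85.1, and the VEGF receptor gene Flt1 read 158, 120 and 89.1. Lrch4, Irf7 and C9h2orf69 were the others of the 5 farthest downwards, by the smaller of their steps. A second VEGF receptor gene, Kdr, read 293, 210 and 182 and was also lower at both doses.

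The antioxidant and NRF2 target list was near 0 at 1 µg/ml and slightly above at 10 µg/ml. Its 36 measured genes had median log2 changes of 0.00 and 0.12, and 14 were higher and 4 lower at both doses, beside 28.8% higher and 31.8% lower among all measured genes. Hmox1, which encodes the heme-degrading enzyme HO-1, read 1180, 1038 and 1456 on its brighter probe set and 239, 224 and 292 on its dimmer one. The quinone reductase gene Nqo1 read 1932, 1658 and 2321. Both were lowest at 1 µg/ml and highest at 10 µg/ml. Of the glutathione synthesis genes, Gclc read 159, 104 and 122, so it was highest in untreated neurons, and the 3 probe sets of Gclm disagreed at 196, 234 and 226, at 148, 193 and 259, and at 139, 81.9 and 150. In astrocytes the brighter Hmox1 probe set gave 1345, 1608 and 5607.

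Hmox1 was among the 3 genes with several measured probe sets that stood at least 1.2-fold above both other neuron arrays at 10 µg/ml. These genes are named after their values were seen. Cyp1b1, which encodes a cytochrome P450 induced by ligands of the aryl hydrocarbon receptor, was another, on all 4 of its probe sets. Its brightest read 2107, 2402 and 3341 at 0, 1 and 10 µg/ml and its next 1191, 1144 and 1537, and the dimmer ones read 261, 273 and 411 and 96.6, 92.5 and 172. All 4 were near untreated neurons at 1 µg/ml, with a mean log2 change of 0.03, and higher at 10 µg/ml, with 0.63. In astrocytes the brightest gave 6899, 9133 and 10691, and the 4 probe sets had log2 changes of 0.63 to 1.91 at 10 µg/ml. Cyp1a1, another target of that receptor, read 7.5, 5.6 and 7.9 in neurons, below the floor. The matrix proteoglycan gene Bgn was the remaining one, at 1387, 1364 and 1669 and at 80.9, 88.9 and 141.

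In the other direction, 17 genes with several measured probe sets stood at least 1.2-fold below both other neuron arrays at 10 µg/ml. Aph1a, a subunit of gamma-secretase, read 1008, 958 and 547 and 159, 185 and 93.0. The fatty acid synthesis gene Acly, which makes cytosolic acetyl-CoA, read 4697, 4576 and 3488 and 1118, 1093 and 811. Serinc3 read 1900, 2135 and 1388 and 507, 647 and 324. Ppt2, a lysosomal thioesterase gene, read 293, 376 and 202 and 165, 167 and 74.1. Irf1, with the interferon genes, and the mitochondrial chaperone gene Hspa9, at 717, 675 and 551 and 191, 189 and 139, also belonged to these.

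On the 1 µg/ml array, 6 such genes stood below both other arrays. Nptx2, the activity-regulated neuronal pentraxin that clusters AMPA receptors, read 1002, 618 and 977 and 179, 45.9 and 185. The vesicle fusion gene Snap25 read 713, 552 and 711 and 509, 423 and 545, and Cd14, a myeloid co-receptor for lipopolysaccharide, 1289, 861 and 1111 and 147, 99.2 and 174. C1qb, Bmp6 and Mapkapk3 made up the rest. Above both other arrays stood 5 genes: Polr1d, Tmem126b, Mrpl13, St6gal1 and Ppp2r3a. Of these, Tmem126b, a mitochondrial complex I assembly gene, read 521, 787 and 578 and 491, 614 and 504, and the sialyltransferase gene St6gal1 359, 456 and 348 and 306, 411 and 312. At 10 µg/ml the log2 changes of Nptx2 and Snap25 lay between -0.04 and 0.10 over their probe sets.

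Each of the neuronal lists held more lower than higher genes at both doses, some only narrowly. Among all measured genes, 31.8% were lower and 28.8% higher. Glutamate receptors and uptake held 8 lower and 2 higher of 17, and GABA and glycine signalling 9 and 3 of 15. Voltage-gated channels held 8 lower and 3 higher of 19, and neuropeptides and granins 9 and 5 of 22. Of 29 measured synaptic vesicle and exocytosis genes, 18 were lower and 1 was higher at both doses, with medians of -0.12 and -0.07. None of these genes (0 of 29) was lower by 1.2-fold at both, beside 3.67% of all measured genes. Nrxn3, a presynaptic adhesion protein gene, read 388, 325 and 265, and the vesicle priming gene Unc13a read 96.0, 82.3 and 72.7. Of 31 growth cone and cytoskeleton genes, 18 were lower and 3 higher, with medians of -0.08 and -0.05. For glutamate receptors and uptake the medians over 17 genes were -0.15 and -0.03, and the receptor gene Grm4 read 217, 140 and 161. Of 32 immediate early genes, 13 were lower and 6 higher, and Arc, which is induced by synaptic activity, read 507, 392 and 413. Of 29 measured calcium kinases and binding proteins, 12 were lower and 11 higher, with medians of -0.03 and 0.07. Of 27 neurotrophic factors and receptors, 10 were lower and 8 higher, with medians of 0.02 and -0.07. Among these, Ntf3, a neurotrophin gene, read 198, 305 and 256, and Ngfr, a neurotrophin receptor gene, 766, 798 and 932 and 122, 178 and 208, while the sorting receptor gene Sort1 read 124, 83.3 and 82.4. The summed neuronal marker signal changed by -4.89% at 1 µg/ml and 2.25% at 10 µg/ml beside these values. Counted by gene, 16 of 31 measured neuronal markers were lower and 4 higher at both doses, with medians of -0.15 and -0.01.

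Some of the other lists held more higher than lower genes, beside the same shares over all measured genes. Of 35 measured ribosomal protein genes, 21 were higher and 3 lower at both doses, with medians of 0.05 and 0.09. Of 19 genes of BMP, activin and TGF-beta signalling, 10 were higher and 3 lower, with medians of 0.14 and 0.12. Among them Ltbp1, which holds latent TGF-beta in the matrix, read 213, 338 and 278, and the activin receptor gene Acvr1b read 88.6, 112 and 128. Lists for oxidative phosphorylation, cholesterol synthesis, heat shock, ER stress, the proteasome and apoptosis had medians between -0.05 and 0.11. Of these, ER stress held 6 lower and 3 higher genes of 19, and apoptosis and p53 6 lower and 4 higher of 17. A lean to lower genes was thus not limited to neuronal lists. Fatty acid synthesis and lipoproteins held 10 lower and 4 higher of 20, and glycolysis and glucose transport 7 and 3 of 17. Astrocyte markers held 5 lower and 1 higher of 21, and endothelial and pericyte markers 6 and 3 of 11. Within apoptosis and p53, Cdkn1a, which encodes the cell cycle inhibitor p21, read 274, 204 and 206.

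**Figure D5:**
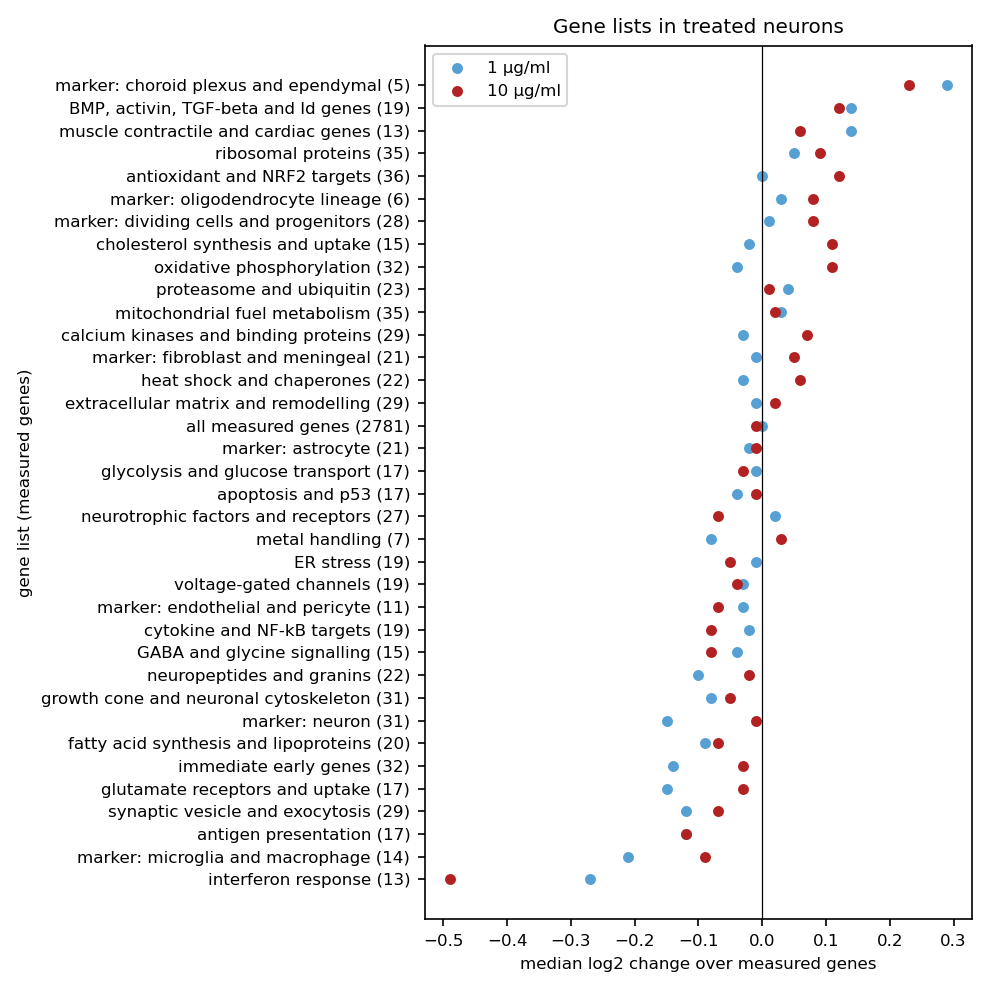
Median log2 change against untreated neurons (horizontal axis) of each gene list, with its number of measured genes in parentheses, in blue at 1 and red at 10 µg/ml. The interferon response lies farthest below 0, at -0.27 and -0.49, and choroid plexus and ependymal markers, with 5 measured genes, farthest above, at 0.29 and 0.23; all measured genes lie at 0.0 and -0.01.

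Cytokine genes showed little change in neurons. Over 19 measured cytokine and NF-kB target genes the medians were -0.02 and -0.08. Past 1.2-fold in one direction at both doses were 0 of them, beside 3.67% lower and 3.99% higher among all measured genes. With 19 genes, a count of 0 is close to those shares. The neutrophil chemokine gene Cxcl2 read 159, 133 and 136, and the manganese superoxide dismutase gene Sod2, an NF-kB target, read 370, 333 and 282. Il6 was not measured in neurons, with signals of 12.2, 18.5 and 22.5 on its brighter probe set. In astrocytes the medians of these genes were 0.20 at 1 µg/ml and 2.20 at 10 µg/ml.

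The genes past 1.5-fold in neurons had no common direction in astrocytes. Of the 13 higher genes, 5 were higher and 3 lower at both astrocyte doses. Of the 10 lower genes, 4 were higher and 3 lower. Among all measured genes, 26.9% were higher and 39.5% lower at both astrocyte doses. The filter was set on neuron signals, so these counts include astrocyte signals below it, such as those of Dlg4 at 37.6, 38.0 and 41.0.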

How the data were processed

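RNA was labelled by the two-cycle Affymetrix procedure from 100 ng of total RNA, per the labels' protocols. The values used are the deposited signal intensities on a linear scale, made by the authors with GCOS, per the submitters' processing notes. For GCOS, version and parameters were not given in the sources used here. Trimmed means of the neuron arrays lay between 500.731 and 500.75, so the scale was kept. Control probe sets (59 of 8799) were left out. Symbols came from the platform annotation, with 7006 probe sets given 1 symbol, 308 several and 1426 none, and probe sets without a single symbol entered no gene count. Signals were floored at the 25th percentile (17.9), and the filter was the median (79.9) or, for bright genes, the 75th percentile (435.7). A fold against a floored signal is a lower bound. Precision is limited by having 1 array a dose.

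The members and gene lists were chosen with earlier results of these data known. Genes were ranked by the smallest change over doses and measured probe sets. The text names the 12 largest each way past 1.5-fold (all 13 higher genes are given), the 8 largest each way among genes with several measured probe sets and among bright genes, the 2 largest each way of a list, the 5 largest by dose step and 12 fixed genes, of which some are given as counts. Members of the interferon and antigen presentation lists, genes in which 1 treated array stood apart and genes with disagreeing probe sets were added after their values were seen. The counting was tested on simulated data with planted 2-fold changes and far less noise than between these arrays. That test checked the counting itself and not how the rule behaves on these data. Alternatives were quantile normalization, centring, other floors, filters, folds and references, and the brightest or mean probe set. Python 3.11.15, pandas 2.3.3, numpy 2.4.6 and matplotlib 3.10.9 were used.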

Additional observations from a re-analysis of the deposited data

Results flagged for a closer look

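The following genes and lists moved one way at both doses in neurons and the opposite way at both doses in astrocytes, by at least 1.2-fold in each array for a gene and by at least 0.1 in the median for a list. With 1 array per dose the difference between the cell types was not tested. Values are log2 changes at 1 and 10 µg/ml, neurons first.

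Of the interferon response genes, Mx2 had -1.66 and -0.65 in neurons and 0.56 and 1.04 in astrocytes. Rsad2 had -0.39 and -0.97 in neurons and 1.91 and 4.83 in astrocytes. The interferon response list had medians of -0.27 and -0.49 in neurons and 0.13 and 1.04 in astrocytes. The antigen presentation list had medians of -0.12 and -0.12 in neurons and 0.12 and 0.59 in astrocytes. Its class II member RT1-Da had -0.44 and -0.36 against 0.51 and 0.69 at its measured probe set. Another RT1-Da probe set, below the filter in neurons, had 0.37 and -0.11 against 1.53 and 0.79.

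Higher in neurons and lower in astrocytes were Dcn, with 1.01 and 1.21 against -0.71 and -0.71, and Dusp7, with 1.29 and 0.91 against -1.91 and -1.34. For Dcn this held at its measured probe set, while the others, below the filter in neurons, differed. They had -0.87 and -0.39 against 0.41 and 0.04, then 0.4 and 0.0 against -1.01 and -1.27, then -0.28 and -0.28 against 0.32 and 0.4. The elastic-fibre gene Fbln5 had 0.37 and 0.40 against -0.28 and -0.47. The potassium channel gene Kcnc1 had 0.53 and 0.46 against -0.82 and -0.66. Its astrocyte signal was only 31.6 without extract and 16.7 at 1 µg/ml, the latter below the floor of 17.9. At 10 µg/ml it was just above the floor, so the direction of Kcnc1 in astrocytes is uncertain. The ribosomal protein gene Rpl17 had 0.27 and 0.42 against -0.44 and -0.54. The cardiac myosin light chain gene Myl2 had 0.66 and 0.40 against -0.56 and -0.58. The motilin receptor gene Mlnr had 0.40 and 0.84 against -0.59 and -0.97, and Isoc2b had 0.63 and 0.59 against -0.41 and -0.42. A second Mlnr probe set, below the filter in neurons, had 0.28 and 0.28 against 0.96 and -0.1. The list of BMP, activin, TGF-beta and Id genes had medians of 0.14 and 0.12 in neurons and -0.12 and -0.35 in astrocytes.

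Lower in neurons and higher in astrocytes, apart from the interferon and class II genes, were Smim13, with -0.71 and -0.83 against 0.36 and 0.31, and the glutamate receptor gene Grm4, with -0.63 and -0.43 against 0.73 and 0.95. Astrocyte signals of Grm4 were low, at 51.5, 85.6 and 99.4 at 0, 1 and 10 µg/ml.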

How the results depend on the processing

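No paired analysis was possible because each dose has 1 array. For the same reason no array could be left out of a comparison. The counts depended most on the signal filter: probe sets at 2-fold at 1 and 10 µg/ml, genes past 1.5-fold at both doses and genes with several agreeing probe sets, 25, 34, 23 and 2 as reported, became 355, 357, 162 and 16 with no filter and 0, 1, 1 and 0 above the 75th percentile. With the floor at the median of all signals, the first 3 were 12 (3 higher, 9 lower), 16 (3 and 13) and 15 (6 and 9). Counted per gene, the 2-fold counts were 15 and 21 for the brightest probe set and 16 and 20 for the mean. With the other fold threshold (1.5-fold for 2-fold, 2-fold for 1.5-fold, 1.5-fold for 1.2-fold) the 4 counts were 160, 221, 6 and 0. With the 10 µg/ml array as reference the last 2 were 57 and 20, and with the 1 µg/ml array the last was 11. Quantile normalization or centring added 1 higher gene to the 2 lower ones with agreeing probe sets. The 8 interferon genes lower at both doses stayed 8 in number under quantile normalization, centring, other floors and the brightest probe set. Their number became 10 with no filter and 1, Gbp2, above the 75th percentile, where fewer genes were measured. The brighter probe set of Irf1, and Irf3, Ifitm3 and Eif2ak2, were also above that percentile and were not lower at both doses. Of 1284 mean changes of 173 named genes under alternatives, 1216 moved by no more than the difference between the gene's changes at the 2 doses, 58 moved by more and 10 reversed. Those that reversed were Cd44 (-0.16), Gabrb2 (-0.07), Atp2b3 (-0.35), Idh1 (0.51), Aif1 (0.03), Nos3 (-0.09) and Bdnf (0.14) with no filter, Map2 (0.01) above the 75th percentile, and Map2 (0.01) and Bdnf (0.07) for the brightest probe set. The reference alternatives were not run for single genes. Low signal over background limits most of the 23 genes.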
